A study of Mus musculus with 8 samples.

Results

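The levels of 10 cytosolic sulfotransferase genes were compared in the livers of Usp39-HKO and control mice, out of 55385 genes in the deposited table: Sult1a1, Sult1b1, Sult1c2, Sult1d1, Sult1e1, Sult2a1, Sult2a2, Sult2a5, Sult2a8 and Sult5a1. They were taken by gene symbol, and the set had been selected on measured values of this same comparison, so their differences are described below without a test. The animals were 4 Usp39-HKO males and 4 control males from the same litters, sampled at an age of 5 weeks after a fast of 16 h, and each gave 1 liver RNA library. The HKO mice carried the floxed Usp39 allele together with Cre driven by the albumin promoter, which deletes exon 2 in cells that use this promoter, mainly hepatocytes, and the controls are labelled WT without a statement of which alleles they carried. Levels are in FPKM, the reads of a gene divided by its exon length and by all reads counted in that liver. Fold changes are log2 ratios of HKO over control from edgeR on the raw counts, with the standard error (SE), and are relative to the median gene, whereas FPKM are not.

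Cytosolic sulfotransferases move a sulfonate group from the donor PAPS (3'-phosphoadenosine 5'-phosphosulfate) onto hydroxyl or amino groups of small molecules, which makes these more soluble and ready for export. Enzymes of the Sult1 family mostly take phenols, catechols, thyroid hormones and oestrogens, and those of the Sult2a family take hydroxysteroids and bile acids. In mouse liver several of these genes differ between the sexes, and the Sult2a genes are known as targets of nuclear receptors for bile acids and xenobiotics.

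The Sult2a genes lie side by side on chromosome 7, and several of them are close copies of each other, which matters for the values of those copies. In GENCODE vM21 (GRCm38, the assembly named mm10 in the processing notes) 8 of them fill 870 kb at chr7:13623967-14494230, in the order Sult2a5, Sult2a2, Sult2a1, Sult2a4, Sult2a3, Sult2a6, Sult2a8 and Sult2a7. The first 90 coding bases of the 4 Sult2a members are shown to let the likeness be seen, with capitals where a base differs from Sult2a1:
Sult2a1: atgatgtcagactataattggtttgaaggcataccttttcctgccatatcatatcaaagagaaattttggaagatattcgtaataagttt
Sult2a2: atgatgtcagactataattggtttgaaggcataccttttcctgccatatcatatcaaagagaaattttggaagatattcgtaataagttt
Sult2a5: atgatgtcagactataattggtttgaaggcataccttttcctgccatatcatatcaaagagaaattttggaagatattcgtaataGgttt
Sult2a8: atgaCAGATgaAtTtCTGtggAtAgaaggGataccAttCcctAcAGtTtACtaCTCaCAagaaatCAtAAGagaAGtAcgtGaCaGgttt
Over this stretch Sult2a2 had 0 differences from Sult2a1, Sult2a5 had 1 (A86G, counted from the first base of the start codon, with the base of Sult2a1 first), and Sult2a8 had 37. Over the aligned coding sequence, gaps left out, identity with Sult2a1 was 98.6% for Sult2a2, 95.3% for Sult2a5 and 80.4% for Sult2a8. On the same measure Sult1a1, of another family, had 71.9%. The coding sequence of Sult2a2 is 582 bases, against 855 for Sult2a1. With gaps counted, identity with Sult2a1 was 67.1% for Sult2a2, 94.9% for Sult2a5 and 71.2% for Sult2a8. Of all 150-base words in its transcript, Sult2a2 shared 20.6% with other genes, Sult2a5 7.47% and Sult2a1 6.31%, whereas Sult2a8 shared 0%. With 50-base words the shares were 62.1%, 34.5%, 33.2% and 1.96%. A split of reads among Sult2a1, Sult2a2 and Sult2a5 is therefore uncertain, and how reads that fit several genes were counted is not given in the sources used here. The length of Sult2a2 in the annotation is 741 exon bases, against 1020 for Sult2a1, 1046 for Sult2a5 and 3284 for Sult2a8, and FPKM divide by these lengths.

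The stretch before the transcription start is shown for Sult2a5, from the group of genes that was higher in HKO livers, and for Sult2a8, which was lower. Both are the 250 bases before a RefSeq start on GRCm38.p6, at chr7:13623717-13623966 on the plus strand for Sult2a5 and at chr7:14438552-14438801 on the minus strand for Sult2a8. Capitals mark the motifs found:
Sult2a5: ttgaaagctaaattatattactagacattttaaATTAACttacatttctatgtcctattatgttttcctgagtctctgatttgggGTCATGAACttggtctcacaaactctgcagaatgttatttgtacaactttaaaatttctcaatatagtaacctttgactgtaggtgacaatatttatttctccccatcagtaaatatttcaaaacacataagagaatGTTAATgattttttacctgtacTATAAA
Sult2a8: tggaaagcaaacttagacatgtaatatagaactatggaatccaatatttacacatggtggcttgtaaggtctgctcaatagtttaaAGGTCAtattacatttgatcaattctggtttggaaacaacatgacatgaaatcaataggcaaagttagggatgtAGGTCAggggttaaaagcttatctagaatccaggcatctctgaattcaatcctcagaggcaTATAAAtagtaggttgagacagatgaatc
The motifs searched, on both strands, were GTCATGAAC (an inverted repeat of nuclear receptor motifs, like the element described in rodent Sult2a genes), AGGTCA (a single nuclear receptor motif, part of which also lies in the former), GTTAAT (part of an HNF1 site), TTCNNNGAA (STAT), TTGCNNAA (C/EBP) and TATAAA. The Sult2a5 window held GTCATGAAC at 165 bases before the start, GTTAAT at 217 and 28 bases, and TATAAA at 6 bases. GTCATGAAC stood in 48 of 32851 such windows of all genes (0.146%), 3 of which are those of Sult2a4, Sult2a5 and Sult2a6, and neither window of Sult2a8 held it. This motif was added after these windows were seen, and Sult2a4, Sult2a5 and Sult2a6 are close copies. Its rarity and its place in these windows are therefore a description and no test. The Sult2a8 window shown held AGGTCA at 164 and 90 bases and TATAAA at 29 bases before the start, motifs that stood in 14% and 12.4% of all windows. The RefSeq start of this window lies 8218 bases inside the GENCODE gene, and the window of the other Sult2a8 start, 182 bases inside it, held no AGGTCA but TTGCNNAA at 217 and TATAAA at 223 bases before its start. GTTAAT stood in 6.43%, TTCNNNGAA in 7.02% and TTGCNNAA in 9.56% of windows. In GENCODE, where Sult2a8 has several starts, 10 bases of its window shown are exonic, and 174 of the 250 bases of its other window. Such matches describe letters and do not show binding.

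Counts on genes summed to between 8589636 and 10418450 per mouse, so that 3 counts, used as the floor for a gene that was not seen, were worth between 0.288 and 0.349 CPM (reads of a gene relative to all reads counted in that liver). Usp39 itself was between 8.07 and 8.70 FPKM in HKO and between 8.76 and 10.4 FPKM in control livers, a log2 fold change of −0.41 ± 0.11 (SE, n = 4 and 4, edgeR adjusted p = 0.0212), and a count over the whole gene does not show the loss of exon 2. The sex on the labels was met by the libraries, with 870 to 1132 counts of the Y-linked Ddx3y and 0 to 9 counts of Xist in every mouse. Hepatocyte markers were high in both groups, whose summed FPKM ran from 13000 to 16800 in HKO and from 13900 to 15900 in control livers, and 2 of the 6 were lower and 0 higher in HKO livers (edgeR adjusted p under 0.05). Among all genes tested in this way 10.9% were higher and 11.6% lower. Markers of bile duct cells (64.2 to 286 against 26.4 to 28.7 FPKM, 4 of 4 tested genes higher), macrophages (493 to 748 against 267 to 349, 5 of 6 higher) and stellate cells (91.7 to 166 against 56.1 to 62.8, 5 of 6 higher) were above the controls in all 4 HKO livers. The 3 tested markers of red cells were lower, with sums that overlapped (139 to 305 against 294 to 629). Sums also overlapped for markers of lymphocytes (4.58 to 6.07 against 4.12 to 4.62, 0 of 3 tested genes passing) and endothelium (100 to 107 against 101 to 114, 2 of 6 lower and 0 higher). In whole liver, fewer cells of a type and less RNA per cell cannot be told apart, and the part of this mixture in the values below was not tested.

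In control livers Sult1a1, the main phenol sulfotransferase, was the most abundant of the 10 transcripts, at 263 ± 24.8 FPKM (mean ± SD, n = 4), followed by Sult2a8 at 151 ± 27.2 and Sult1d1 at 69.3 ± 23.8 FPKM. These 3 kept apart in every control mouse, and Sult1b1 came next at 7.93 ± 2.72 FPKM. The other 6 genes were near or below 1 FPKM on average, and from Sult5a1 downwards each overlapped its neighbour in this order. In HKO livers Sult1a1 stayed first at 273 ± 36.5 FPKM, and the next places went to Sult2a2 at 135 ± 135 and Sult2a1 at 127 ± 128 FPKM, ahead of Sult1d1 at 92.9 ± 32.0 and Sult2a8 at 36.9 ± 17.3 FPKM. Within the HKO order Sult1a1, Sult2a2, Sult2a1 and Sult1d1 overlapped from one to the next, while Sult1d1 and Sult2a8 did not.

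Sult2a1, an enzyme for hydroxysteroids such as dehydroepiandrosterone and for bile acids, was close to absent in control livers and abundant in most HKO livers. Its level was 0, 0.396, 0 and 0.282 FPKM in control mice A468, A472, A473 and A475, which are 0, 4, 0 and 3 counts. In HKO mice A469, A470, A471 and A474 it was 287, 47.9, 2.16 and 172 FPKM, or 2842, 498, 21 and 1664 counts. Each HKO mouse was above each control, but the HKO mice themselves spread over 133-fold, with A471 nearer to the controls than to A469. Summed over mice there were 5025 counts against 7, a ratio of 702 with an exact 95% counting interval from 341 to 1748. This ratio was 407 without HKO A469 and 1213 without control A472. The fitted log2 fold change of 9.16 ± 1.53 (SE) depends on the small count that edgeR adds, since 2 controls were at 0, and it was 8.29 without A469 and 9.89 without A472.

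Sult2a2, the nearest copy, followed the same order of mice. It was at 0.147, 2.04, 0.157 and 0.259 FPKM in control mice A468, A472, A473 and A475, and at 315, 67.1, 3.39 and 155 FPKM in HKO mice A469, A470, A471 and A474. The groups did not overlap, although the highest control, A472, had 15 counts and the lowest HKO mouse, A471, had 24. The log2 fold change was 7.41 ± 1.28 (SE), and it was 6.48 without HKO A469 and 9.14 without control A472. The ratio of Sult2a1 to Sult2a2 stayed between 0.636 and 1.11 in the 4 HKO livers while both levels varied, and the shared sequence shown above bears on this ratio.
Sult2a5 was the least abundant of the trio. It had 0, 0, 1 and 1 counts in the controls (at most 0.111 FPKM) and 114, 68, 3 and 129 counts in HKO mice A469, A470, A471 and A474, or 11.2, 6.38, 0.301 and 13.0 FPKM. The groups did not overlap, and 314 counts against 2 gave a ratio of 154 with an exact 95% counting interval from 42.2 to 1274 (238, with an interval from 42.4 to 9431, without control A473). Only 3 mice reached 0.5 FPKM, fewer than the 4 required, so the gene was outside the main fit, and without that requirement its log2 fold change was 6.70 ± 0.82 (SE).

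Sult2a8, a bile acid sulfotransferase of the liver, went the other way. It was at 175, 112, 157 and 161 FPKM in control mice A468, A472, A473 and A475 and at 24.9, 54.5, 48.7 and 19.4 FPKM in HKO mice A469, A470, A471 and A474. Every HKO liver was below every control liver, and the mean was 4.10-fold lower, with a log2 fold change of −2.26 ± 0.31 (SE). The 2 HKO mice with the most Sult2a1, A469 and A474, were the 2 with the least Sult2a8. The summed level of Sult2a1, Sult2a2 and Sult2a5 was 24.6 times that of Sult2a8 in A469, 17.5 times in A474 and 2.23 times in A470, but 0.12 times in A471. In the controls this ratio was at most 0.0217.

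**Figure D1:**
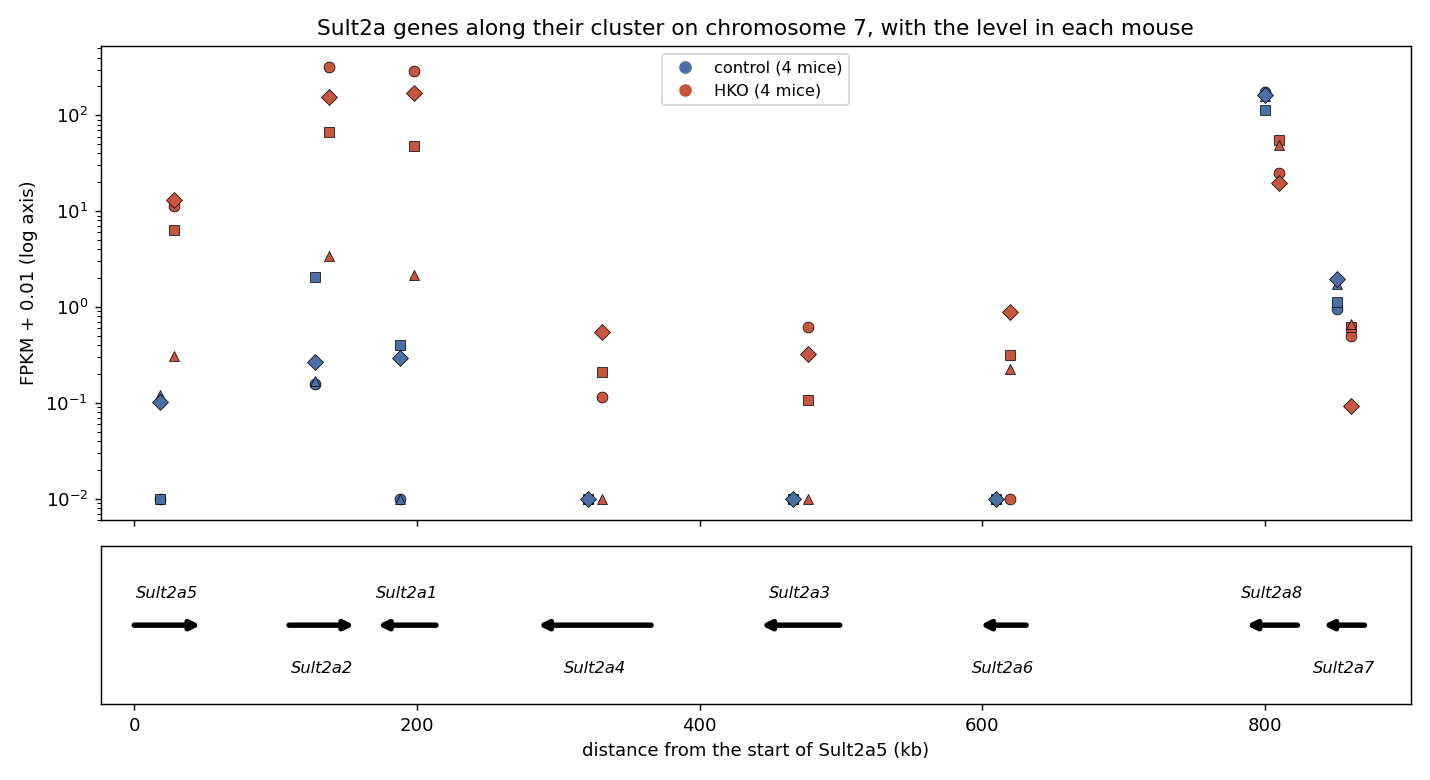
Levels of the 8 Sult2a genes in each mouse (upper panel, FPKM plus 0.01 on a log axis, so that points at the bottom are at 0) above the position of each gene, given as distance in kb from the start of Sult2a5 (lower panel, arrows show the direction of transcription). Blue points are the 4 control and red points the 4 HKO mice, with 1 shape for each mouse of a group; red points lie above blue for Sult2a5, Sult2a2 and Sult2a1 at one end of the cluster and below blue for Sult2a8 near the other end, where Sult2a7 has 1 HKO mouse far below the rest.

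The remaining Sult2a genes of the cluster are low copies that were not among the 10. Sult2a7, next to Sult2a8, had 11, 14, 19 and 26 counts in controls and 6, 8, 8 and 1 in HKO mice, and was lower in HKO livers (log2 fold change −1.84 ± 0.46 (SE), edgeR adjusted p = 0.0163), a call that was lost without control A473 or without control A475 (edgeR adjusted p up to 0.0567). Sult2a3, Sult2a4 and Sult2a6 had 0 counts in every control and 10, 8 and 13 counts over the 4 HKO mice. Against a floor of 3 counts over the control group these are ratios of 3.26, 2.61 and 4.24, without allowance for the error of the HKO counts. Sult2a3 and Sult2a4 had 0 counts in HKO A471 and Sult2a6 had 0 in HKO A469, so the groups overlapped. These 3 genes share 8.36%, 25.5% and 6.63% of their 50-base words with other genes, Sult2a1, Sult2a2 or Sult2a5 among them, so that stray reads cannot be told apart from expression. 

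Among the Sult1 members, Sult1e1 differed most. This gene encodes oestrogen sulfotransferase, which inactivates oestrogens. Its level was 0.0877, 0.487, 0.844 and 1.0 FPKM in control mice A468, A472, A473 and A475 and 11.02, 0.632, 0.253 and 7.13 FPKM in HKO mice A469, A470, A471 and A474. Only A469 and A474 were above all controls, and A470 and A471 lay inside the control range, so the groups overlapped. The log2 fold change of 2.72 ± 0.98 (SE) describes a mean over 2 high and 2 low mice, and without A469 it was 1.80.

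Sult1d1, an enzyme for catecholamines and other phenols, showed the same pair of mice on top, at a smaller scale. It was at 60.0, 40.5, 94.0 and 82.6 FPKM in the controls and at 117, 72.5, 58.9 and 123 FPKM in HKO mice A469, A470, A471 and A474. The groups overlapped, the log2 fold change was 0.19 ± 0.28 (SE), and it was −0.0025 when control A472 was left out. Sult1a1 overlapped between the groups, at 268, 228, 271 and 286 FPKM in controls and 315, 271, 227 and 280 FPKM in HKO mice. Its log2 fold change of −0.18 ± 0.14 (SE) turned to 0.06 without scaling factors, by less than the shift of the median gene in that setting (0.24). About 4.05% of its exon bases lie opposite to exons of Sgf29, and whether strand was used in counting is not given in the sources used here.

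Sult1b1, an enzyme for thyroid hormones and phenols, was at 7.84, 4.17, 9.34 and 10.4 FPKM in controls and 6.88, 4.69, 6.15 and 4.71 FPKM in HKO mice. The 4 HKO mice lay below 3 of the controls and above control A472, with a log2 fold change of −0.72 ± 0.26 (SE). Sult1c2 was near its limit of detection, between 12 and 22 counts in controls and between 7 and 17 in HKO mice, with overlapping groups and a log2 fold change of −0.63 ± 0.33 (SE). Sult1b1, Sult1d1 and Sult1e1 are neighbours within 78.3 kb of chromosome 5 (chr5:87513339-87591594), and their log2 fold changes were −0.72, 0.19 and 2.72.

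Sult5a1 was low in all mice and lower in HKO livers. It was at 1.23, 0.548, 1.40 and 1.15 FPKM in control mice A468, A472, A473 and A475 and at 0.186, 0.333, 0.332 and 0.0716 FPKM in HKO mice A469, A470, A471 and A474. The groups did not overlap, the mean was 4.69-fold lower and the log2 fold change was −2.43 ± 0.42 (SE). As with Sult2a8, A474 and A469 had the lowest levels. The gene rests on 40 counts over the HKO and 180 over the control mice.

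**Figure D2:**
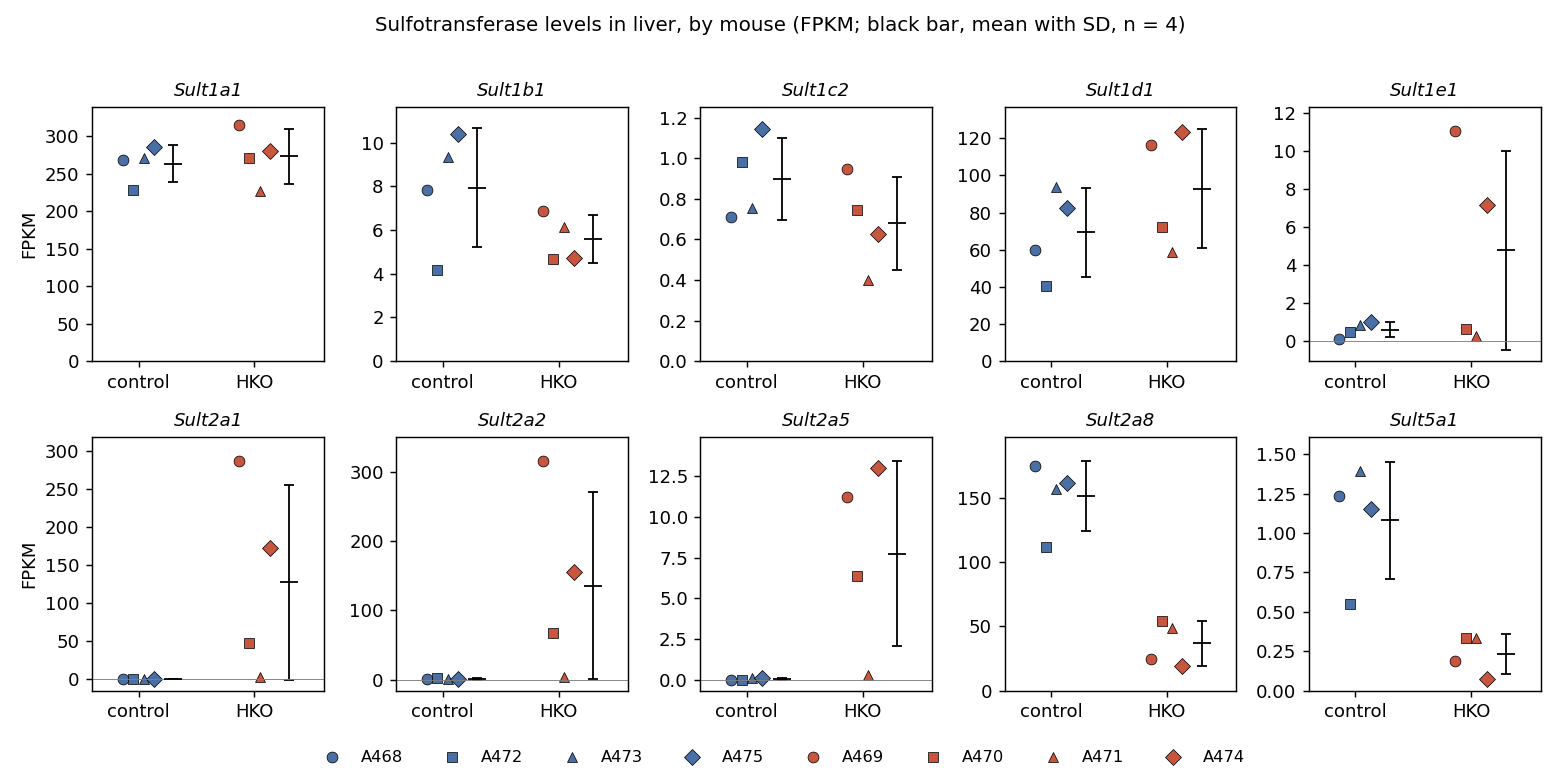
FPKM of the 10 sulfotransferases in each liver, with 4 control mice in blue and 4 HKO mice in red, 1 shape per mouse of a group, and the mean with its SD in black. The circle and the diamond in the HKO group are A469 and A474, which lie highest for Sult1d1, Sult1e1, Sult2a1, Sult2a2 and Sult2a5 and lowest for Sult2a8 and Sult5a1.

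Counted over the set, 9 of the 10 members were in the fit, and 4 of these had an adjusted p under 0.05, 2 higher (Sult2a1 and Sult2a2) and 2 lower (Sult2a8 and Sult5a1). Among all 14340 genes in the fit 22.5% passed, 10.9% higher and 11.6% lower. Sult2a1 reached the fit only through its HKO levels and Sult5a1 only through its control levels, so that these 2 had to differ, and since the set had been selected on this comparison nothing is read from the count. In FPKM the groups did not overlap for 4 of the 9 members in the fit, 2 with all HKO mice above all controls and 2 with all below, which holds for 23.9% and 4.81% of the genes in the fit, nor for Sult2a5, outside the fit. The median log2 fold change of the 9 members was −0.18, against −0.0015 for all genes, with a range from −2.43 to 9.16.

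The sum of the family and the share of each gene in it were then compared. The 10 genes together gave 513, 389, 534 and 545 FPKM in control mice A468, A472, A473 and A475 and 1089, 526, 347 and 775 FPKM in HKO mice A469, A470, A471 and A474, so that the totals overlapped. In controls Sult1a1 held 50.7 to 58.6% of this sum, Sult2a8 28.8 to 34.1% and Sult1d1 10.4 to 17.6%, and the trio of Sult2a1, Sult2a2 and Sult2a5 at most 0.626%. In HKO livers Sult2a8 held 2.29%, 10.4%, 14.0% and 2.51% in A469, A470, A471 and A474, and the trio held 56.3%, 23.1%, 1.69% and 43.9%. Every HKO liver had a smaller share of Sult2a8 than every control, and the share of the trio in A471 was far below that in the other 3 HKO livers, though above that of every control. The 8 Sult2a genes summed gave 639, 177, 55.4 and 361 FPKM in the HKO mice and 116 to 176 FPKM in the controls, which overlap. As counts, in which the long Sult2a8 transcript weighs more, the same sum was 14033 in HKO and 18977 in control livers, a mean log2 difference of −0.84.

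**Figure D3:**
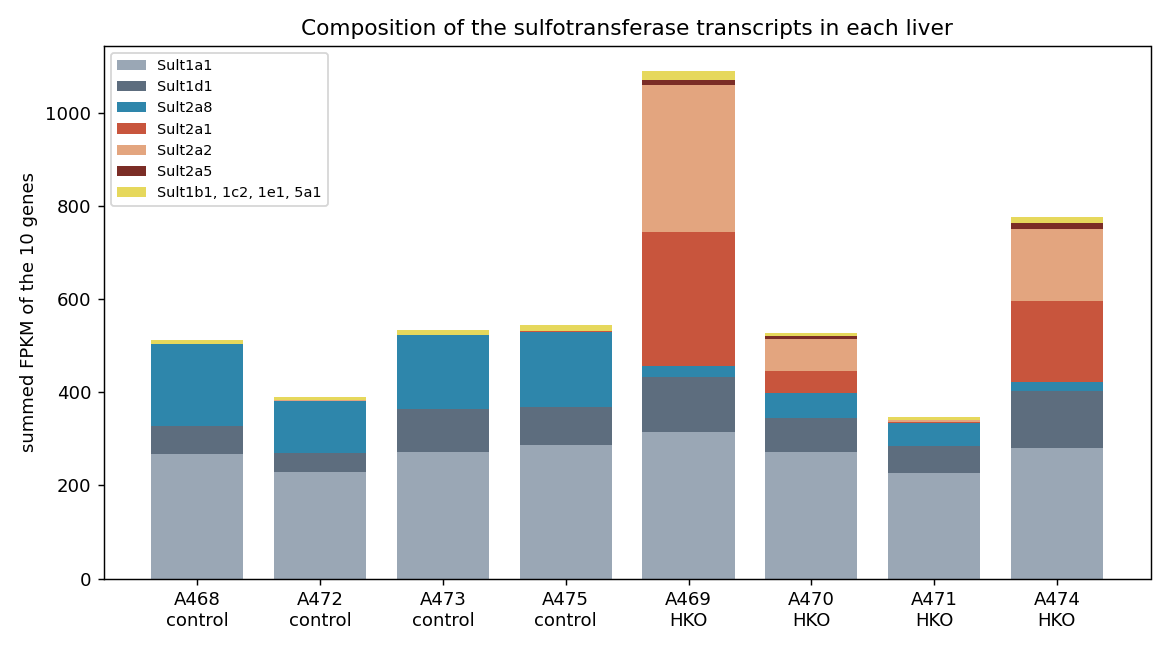
Summed FPKM of the 10 sulfotransferases in each liver, stacked by gene, with the 4 control mice on the left and the 4 HKO mice on the right. The blue block of Sult2a8 is smaller in every HKO liver than in any control, and the red and orange blocks of Sult2a1 and Sult2a2 are large in A469 and A474, smaller in A470 and barely visible in A471.

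The other cytosolic sulfotransferases outside the cluster were low. Sult3a1 had 1, 36, 10 and 18 counts in controls and 8, 3, 1 and 0 in HKO mice, a log2 fold change of −2.61 ± 0.88 (SE) that did not pass (edgeR adjusted p = 0.0522, and between 0.0207 and 0.157 over the 8 fits that leave out 1 mouse, with log2 fold changes of −3.73 without HKO A469 and −1.89 without control A472). Of 11 such genes with those of the cluster included, only Sult2a7 and Sult3a1 were expressed highly enough for the fit. Sult2b1, a cholesterol sulfotransferase, had 4 counts over the controls and 29 over the HKO mice, a ratio of 7.10 with an exact 95% counting interval from 2.49 to 27.8 (10.8 without control A468 and 4.53 without HKO A474), and its exons overlap those of Lmtk3 on the opposite strand. Sult3a2, Sult4a1, Sult6b1 and Sult6b2 had at most 4 counts in any mouse, and Sult1c1 had 0 in all 8.

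The supply of the donor PAPS was followed in a list of 12 genes of sulfate uptake, PAPS synthesis and sulfite handling, 10 of which were in the fit. For this and each later list, the share among all 14340 genes in the fit was 22.5%, with 10.9% higher and 11.6% lower. The enzymes that make PAPS did not pass: Papss2, the more abundant of the pair, was at 49.8 ± 7.19 FPKM in control and 58.5 ± 5.06 FPKM in HKO livers, and Papss1 at 3.30 ± 0.36 and 4.60 ± 0.96 FPKM (SD, n = 4). Cdo1, which oxidises cysteine on the way to sulfate, fell from 884 ± 84.8 to 583 ± 190 FPKM (log2 fold change −0.81 ± 0.23 (SE), edgeR adjusted p = 0.0248). Suox, which makes sulfate from sulfite, fell from 68.7 ± 8.31 to 47.1 ± 7.65 FPKM (−0.77 ± 0.16 (SE), edgeR adjusted p = 0.00626). Impad1, a Golgi phosphatase that clears the spent donor, rose by 0.50 ± 0.10 (SE) on the log2 scale (edgeR adjusted p = 0.00438), and Slc26a2, a sulfate transporter, by 0.54 ± 0.18 (SE, edgeR adjusted p = 0.0478). In all 2 genes rose and 5 fell, the other 3 being Slc26a1, Slc35b2 and Bpnt1, with a list median of −0.17. Without scaling factors the last 3 did not pass and the median was 0.07, and the count was 3 without HKO A474 or control A473 and 4 without HKO A471, control A468 or control A475. The calls of Cdo1 and Slc26a2 were lost in 5 and 6 of the 8 fits that leave out 1 mouse (edgeR adjusted p up to 0.0697 and 0.136, both without control A473).

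Sulfatases and the sulfotransferases of the Golgi were measured as 2 further lists. The steroid sulfatase Sts was listed but not analysed here, so the removal of sulfate from steroids was not followed. Among 11 tested sulfatases and their activators, Galns rose by 0.62 ± 0.14 (SE, edgeR adjusted p = 0.00893) and Sulf2, which edits heparan sulfate outside cells, by 0.52 ± 0.11 (SE, edgeR adjusted p = 0.00765), and none fell (list median −0.01). Of 16 tested sulfotransferases of the Golgi, which act on glycans and proteins, 3 rose and 3 fell, with a median of 0.01. Chst12 and Ust, which sulfate chondroitin and dermatan chains, rose by 0.83 ± 0.24 (SE, edgeR adjusted p = 0.0311) and 0.82 ± 0.26 (SE, edgeR adjusted p = 0.0411), and Chst15 passed as well. Chst13 fell by 0.97 on the log2 scale (SE 0.23, edgeR adjusted p = 0.0131), as did Tpst1, which sulfates tyrosines of proteins, by 0.65 (SE 0.14, edgeR adjusted p = 0.00896), and Ndst1. The 3 rises were lost when HKO A470, HKO A474, control A468 or control A473 was left out, which left 3 falls each time, and without scaling factors 6 genes rose and only Chst13 fell. The stellate and macrophage markers given above were higher in HKO livers, whereas this list went both ways, and the part of these cells in it was not tested.

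Of 17 transcription factors known to act on sulfotransferase genes, 14 were in the fit, and 7 fell and 0 rose, with a median log2 fold change of −0.32. Nr1i3, the constitutive androstane receptor, was between 9.40 and 13.2 FPKM in control and between 4.63 and 6.48 FPKM in HKO livers (log2 fold change −1.31 ± 0.16 (SE), edgeR adjusted p = 0.000758). Esr1, the oestrogen receptor, was between 1.96 and 2.36 FPKM in control and between 1.10 and 1.48 FPKM in HKO livers (−1.02 ± 0.13 (SE), edgeR adjusted p = 0.000916). Ppara, Nr0b2, Nr1h4 (the bile acid receptor), Nr1h3 and Nr3c1 also fell. Nr1i2, the pregnane X receptor, was at 36.1 ± 8.22 and 56.7 ± 10.2 FPKM (SD, n = 4) and did not pass. Without scaling factors 3 of the 7 falls remained, those of Nr1i3, Ppara and Esr1, and Nr1i2 passed as higher. The count was 4 without HKO A470, HKO A474, control A473 or control A475.

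Sulfonated products leave and re-enter hepatocytes through transporters, of which 12 of 13 listed were in the fit. Slco1a1, an uptake carrier for steroid sulfates, was between 35.6 and 52.9 FPKM in control and between 5.75 and 18.4 FPKM in HKO livers, and fell by 2.04 on the log2 scale (SE 0.28, edgeR adjusted p = 0.00104). Slco2b1 fell by 1.09 (SE 0.15, edgeR adjusted p = 0.00122), and Slco1b2 and the bile acid importer Slc10a1 fell too. The Abcc export pumps went both ways. Abcc1 and Abcc4 rose by 0.95 ± 0.26 (SE, edgeR adjusted p = 0.022) and 0.67 ± 0.20 (SE, edgeR adjusted p = 0.0312). Both were low, at most 0.433 and 1.18 FPKM in control and 1.26 and 3.02 FPKM in HKO livers. Abcc3 was between 68.6 and 103 FPKM in control and between 48.8 and 59.6 FPKM in HKO livers. It fell (log2 fold change −0.96 ± 0.16 (SE), edgeR adjusted p = 0.00234). Abcc2, between 86.4 and 105 FPKM in control and between 67.8 and 106 FPKM in HKO livers, did not pass, but passed as lower with DESeq2. Abcc1 reached the fit only through its HKO levels and so had to differ, and without it 1 gene was higher and 5 were lower of 11, with a median of −0.39. These 7 of 12 calls, 2 higher and 5 lower, were the same without scaling factors, and the list median was −0.29. When 1 mouse was left out, the call of Abcc1 was lost in 3 of 8 fits (edgeR adjusted p up to 0.0704, without control A475) and that of Abcc4 in 4 (up to 0.0912, without control A473).

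Because Sult2a1, Sult2a2 and Sult1e1 are known to differ between male and female mouse livers, other genes with such a difference were listed by sex. Of 18 listed genes known as higher in females, only 12 were in the fit. Of these 5 rose and 1 fell, with a median log2 fold change of 0.80. Among all genes in the fit 10.9% passed as higher and 11.6% as lower. One of the rises, Prom1, reached the fit only through its HKO levels and so had to differ, which leaves 4 rises among 11 genes. Cyp3a41a was between 0 and 1.52 FPKM in control and between 9.87 and 19.8 FPKM in HKO livers (4.88 ± 0.67 (SE), edgeR adjusted p = 0.0011), with the caution that Cyp3a41b is nearly identical, and its log2 fold change was 7.81 without control A472. Cyp2a4, a steroid hydroxylase, went from 13.3 ± 2.86 to 156 ± 62.7 FPKM (SD, n = 4, log2 fold change 3.34 ± 0.31 (SE), edgeR adjusted p = 0.000225). Fmo2 fell by 0.79 (SE 0.22, edgeR adjusted p = 0.0246), and not without scaling factors. Of 17 tested genes known as higher in males, 10 fell and 0 rose, with a median of −1.70. Slco1a1, given above with the transporters, is also among these 10. Hsd3b5 was between 1.37 and 3.38 FPKM in control and between 0 and 0.812 FPKM in HKO livers (−3.47 ± 0.65 (SE), edgeR adjusted p = 0.00405), and Cyp4a12a between 30.1 and 81.4 and between 0.610 and 22.5 FPKM (−2.92 ± 0.81 (SE), edgeR adjusted p = 0.0248). Without HKO A471 these log2 fold changes were −5.27 for Hsd3b5 and −4.53 for Cyp4a12a. The call of Cyp4a12a was lost in 3 of the 8 fits that leave out 1 mouse (edgeR adjusted p up to 0.0687, without control A468) and that of Fmo2 in 2 (up to 0.0662, without HKO A471).

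**Figure D4:**
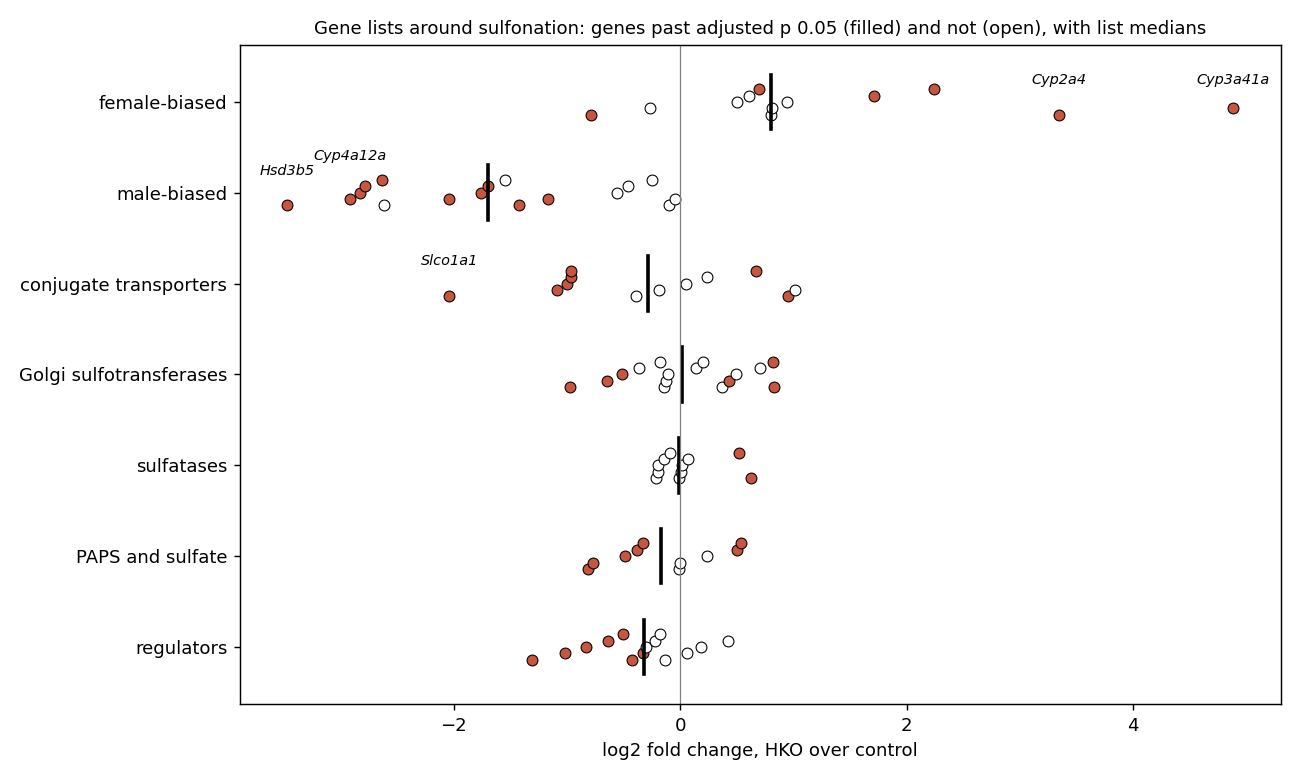
Log2 fold change of HKO over control for the tested genes of 7 lists around sulfonation, 1 point per gene, filled where the edgeR adjusted p was under 0.05, with a black bar at the median of each list and the points spread vertically for reading only. The male-biased genes lie below 0, most female-biased genes lie above 0, and the other lists lie within about 1 of 0 apart from Slco1a1 and a few of the regulators and transporters.

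The genes whose profile over the 8 mice was most like that of 2 members were sought among all genes in the fit, by the root mean square difference of log2(TMM-scaled CPM + 1) after centring each gene. For Sult2a8, whose own profile had an SD of 1.29 on this scale, the nearest were AC121973.1 (0.26), Ugt3a1, a glycosyltransferase for xenobiotics and bile acids (0.28), Mug1, a plasma protease inhibitor (0.31), Cyp2d38-ps (0.31) and Alas2, a haem synthesis enzyme of red cells (0.33). Ugt3a1 was between 19.2 and 25.0 FPKM in control and between 3.0 and 10.4 FPKM in HKO livers, and Mug1 between 1232 and 1656 and between 276 and 685 FPKM. All 5 had their lowest level in A469 or A474. AC121973.1 rests on few reads, with 0, 18, 21 and 2 counts in HKO mice A469, A470, A471 and A474. The 1 added to CPM before the logarithm narrows differences at such levels, and its fitted log2 fold change was −3.00 ± 0.59 (SE).

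For Sult1e1, with an SD of 1.25, the likeness was looser, at 0.59 for Lcn2, a protein of acute inflammation, 0.70 for the circadian factor Dbp, 0.72 for Slc41a3 and 0.74 for the mitotic kinase Aurkb. Lcn2 was at 151, 33.0, 24.7 and 69.9 FPKM in HKO mice A469, A470, A471 and A474, and between 8.18 and 41.5 FPKM in the controls. As for Sult1e1, A469 was highest and A474 next. For Sult2a1, a target added after its values were seen, Sult2a2 was at 0.41 and the nearest gene outside the family was the imprinted RNA H19 at 1.52, far in comparison, on a profile with an SD of 3.24.

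**Figure D5:**
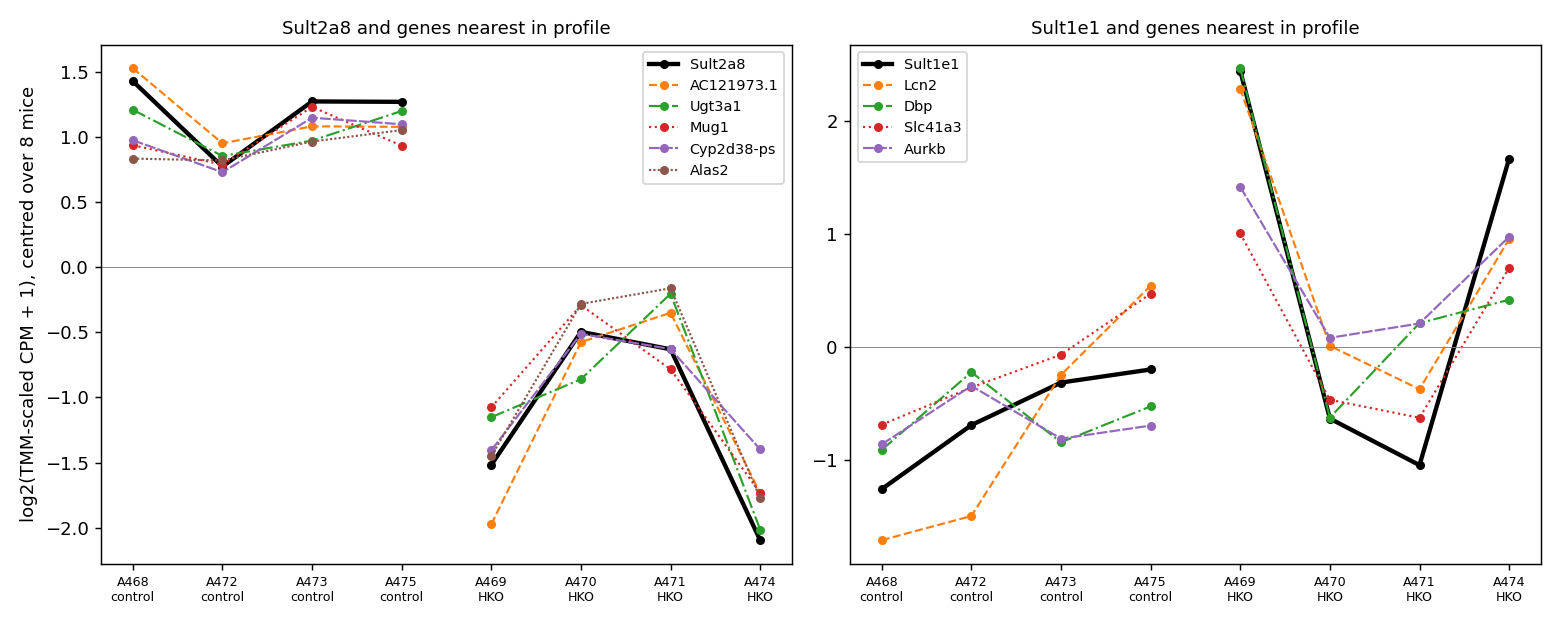
Level of Sult2a8 (left) and of Sult1e1 (right), in black, and of genes nearest to each in profile (5 and 4 genes), as log2(TMM-scaled CPM + 1) centred over the 8 mice, with lines that only join the points of a gene. The Sult2a8 set lies above 0 in every control and below 0 in every HKO mouse, and the Sult1e1 set has its highest point in A469.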

How the data were processed

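Liver RNA of 8 mice was sequenced as paired reads of a NEBNext library. Per the study's methods, the authors aligned reads to mm10 with HISAT2 and counted them per gene with featureCounts, and the submitters' processing notes also name Trim Galore 0.6.1, FastQC 0.11.9 and Picard. Strand and multi-mapping settings and the annotation release are not given in the sources used here, although the deposited lengths equal the exon lengths of GENCODE vM21 for all 21 family genes. The deposited table holds raw counts and FPKM per mouse, and the FPKM follow from counts, length and total count within rounding. The authors also deposited DESeq2 columns, namely a mean normalized signal, a log2 fold change, its error and statistic as scores, and p-values, which were not used. Of 55699 table rows, 314 repeat a gene and were read once.

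The 14340 genes that reached 0.5 FPKM in 4 or more mice were fitted with edgeR 4.0.16 in R 4.3.3 (quasi-likelihood test, TMM factors 0.911 to 1.19, genotype as the only term, Benjamini-Hochberg adjustment over all genes in the fit, two-sided). SEs were derived from the F statistic. The common coefficient of variation between mice was 0.179. Each library is 1 mouse, and no batch is labelled. Counts of mice of one genotype differed by more than counting error. Intervals and floors cover counting error only, since PCR reads without molecular identifiers are not independent molecules.

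The 10 members and all gene lists were chosen with earlier results of these data known, so no list is independent evidence. Named were all members, all other cytosolic sulfotransferases, from each list at most 2 genes per direction with the largest change among those that passed, and the 5 genes nearest in profile to the most abundant Sult2a member and to the Sult1 member with the largest change, of which 1 is not reported here. Usp39, the sex-linked genes, Papss1, Papss2, Nr1i2, Abcc2, Cux2, Acot3, Abcd2 and the other genes that passed are named outside this rule, after their values were seen. Sts and Serpina4-ps1 were not analysed here. Sequences were read from GENCODE vM21 transcripts and RefSeq promoter tables (8 of the 10 members have a RefSeq window, Sult2a1 and Sult2a2 do not). GTCATGAAC was added to the motifs after the windows were seen. Alternatives were RLE or no scaling factors, DESeq2 1.42.0, other filters, limma 3.58.1 on log2(FPKM + 1) or log2(FPKM + 0.1), and leaving out each mouse (a fold change that moved by over 1.5 times is given beside its value). The fit was tested on simulated data before use.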

Additional observations from a re-analysis of the deposited data

Results flagged for a closer look

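A mouse far from the other 3 of its group was found in 7 of the 78 groups of 4 examined by the ratio of its gap to the range (Dixon's 95% critical value), where chance gives about 1 in 20. In control livers, A472 was far above the rest for Sult2a2 (2.04 FPKM, next 0.259) and for Cyp3a41a (1.52 FPKM, next 0.14), and A475 was the one control with a read of Sult4a1 (0.0382 FPKM). In HKO livers, A474 was highest for Impad1 (27.8 FPKM, next 23.8), A471 was highest for Hsd3b5 (0.812 FPKM, next 0.127), A469 was lowest for Sult6b1 (0.0484 FPKM) and A470 was the one mouse with a read of Sult6b2 (0.0454 FPKM). Those of Sult4a1, Sult6b1 and Sult6b2 rest on 1 count each. A472 also had the lowest Sult2a8, Sult5a1, Sult1a1, Sult1b1 and Sult1d1 of the controls. The groups examined did not cover every list gene. Outside them, A472 was also the highest control for the female-biased Cux2 (2.31 FPKM, next 0.152), Acot3 (18.1 FPKM, next 3.42) and Abcd2 (14.1 FPKM, next 5.81). Without A472, 7 genes of the female-biased list passed as higher and 1 as lower, against 5 and 1 with all mice. The cause of these differences was not tested.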

How the results depend on the processing

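The number of genes that passed among all genes was 3225 and lay between 1931 and 3510 when 1 mouse was left out (1931 without control A473, 2043 without control A475, 2094 without HKO A474), and it was 1595 at a mean FPKM of at least 5, where fewer genes are tested. The share of higher genes among those passing was 48.4%, and 83.5% without scaling factors, where the median gene is 0.24 higher, and 82.6% and 83% with limma on log2(FPKM + 1) and log2(FPKM + 0.1). Of the members, 7 passed without the filter on low values and 4 to 5 when a mouse was left out. Of the other cytosolic sulfotransferases, 2 passed with DESeq2, 4 with all genes fitted, 0 under a minimum mean of 5 FPKM (none was left to test) and 0 to 2 when a mouse was left out. The PAPS list had 4 without scaling factors and in both limma fits, and 3 to 7 over the left-out mice, the Golgi list 3 to 8, and the regulator list 4 in those 3 settings and at a mean FPKM of at least 5, and 4 to 7 over the left-out mice. The female-biased list had 10 without the filter and 4 to 8 over left-out mice, the male-biased list 5 at a mean FPKM of at least 5 and 8 to 12, the transporters 5 to 8 and the sulfatases 2 throughout. The summed Sult2a counts moved between −1.19 and −0.53 (log2) over left-out mice, and summing reverses the direction of Sult2a1, Sult2a2 and Sult2a5 to −0.84, by construction, since Sult2a8 holds most of the control reads. Among named list genes no direction reversed. Calls were lost without control A473 for 9 genes (Slc26a2, Cdo1, Chst12, Ust, Abcc1, Abcc4, Fmo2, Cyp4a12a, Sult2a7), without HKO A474 for 6 (Slc26a2, Cdo1, Chst12, Ust, Abcc1, Abcc4) and without control A475 for 6 (Slc26a2, Cdo1, Ust, Abcc1, Abcc4, Sult2a7). They were lost without control A468 for Slc26a2, Chst12, Ust, Abcc4 and Cyp4a12a, without HKO A471 for Slc26a2, Cdo1, Ust and Fmo2, without HKO A470 for Cdo1, Chst12, Ust and Cyp4a12a, without control A472 for Slc26a2 and Chst12, and without HKO A469 for Chst12. Further losses were 3 without the filter (Slc26a2, Chst12, Ust), 2 without scaling factors (Tpst1, Fmo2), 3 in each limma fit (Tpst1, Abcc1, Fmo2) and 1 at the higher minimum (Fmo2). The causes were not tested. No paired analysis was possible because the labels do not say which mice shared a litter, so litter was not in the fit. Depth limits Sult1c2, Sult5a1 and the family genes with under 20 counts in a group, whose values rest on few reads.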
